A study of Homo sapiens with 4 samples.

Results

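The 41 genes described here encode the machinery that copies DNA and the proteins that admit a cell to S phase. They were listed by name from the known origin licensing, helicase, polymerase, clamp, nucleotide supply, chromatin assembly and G1/S regulation genes, and each was found under its symbol among the 55536 genes of the deposited table. Of them, 40 had enough reads to be tested, among 14380 tested genes in all. Before S phase, the origin recognition complex, CDC6 and CDT1 load the MCM helicase onto DNA. The helicase is switched on at the G1/S transition with the help of CDC45 and the GINS complex, and polymerases held by the PCNA clamp then copy both strands. Many of these genes are transcribed under E2F factors, which the retinoblastoma protein restrains until cyclin D and cyclin E kinases phosphorylate it, so their RNA is widely used as a readout of proliferation.

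RNA was sequenced from HaCaT cells, an established human keratinocyte line, in a screen for genes that respond to TYMP. TYMP encodes thymidine phosphorylase, which breaks thymidine down to thymine and thereby removes a precursor of DNA. The 2 groups were cells made with a lentivirus to overexpress TYMP stably (TYMP, 2 libraries) and cells labelled NC (2 libraries), which the labels neither spell out nor describe further. Cells of both groups were collected 48 hours into the protocol in Trizol. The labels do not give the promoter of the vector, the number of clones behind the line, or whether 1 culture or several lie behind each group. A p-value here therefore measures the spread between these samples, which may be technical.

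TYMP itself averaged 70.3 ± 7.77 CPM (read counts scaled to a common library size) in the TYMP libraries and 16.3 ± 0.552 CPM in the NC libraries (SD, n = 2 each), or 2.10 ± 0.124 on the log2 scale (estimate and standard error; edgeR quasi-likelihood test, Benjamini-Hochberg adjusted p = 1.47e-06). Library totals lay between 16209663 and 17000821 counts. All 10 keratinocyte markers examined reached 1 FPKM (reads scaled by gene length and library size), with a summed level of 3693 to 3879 FPKM in TYMP libraries and 2866 to 3198 FPKM in NC libraries. Of these markers, 3 of 10 rose in TYMP cells, beside 2.09% of all tested genes called higher: KRT5 at a fold of 1.45, DSG3 at 1.37 and KRT14 at 1.28, the last not called without NC replicate 2 (edgeR adjusted p = 0.157) or by limma on log2 FPKM (adjusted p = 0.0863 with a pseudocount of 1 and 0.0815 with 0.1). Markers of fibroblasts summed to 0.846 to 1.04 FPKM in TYMP libraries and 0.516 to 0.611 FPKM in NC libraries, with none of 6 at 1 FPKM and COL3A1 at 0. Melanocyte markers summed to 2.71 to 2.92 and 2.70 to 4.08 FPKM, leukocyte markers to 2.99 to 3.75 and 1.598 to 2.65 FPKM, and endothelial markers to 0.432 to 0.482 and 0.438 to 0.612 FPKM, TYMP libraries first and NC libraries second. MITF and CD14 alone among these 18 markers reached 1 FPKM, while TYR and LYZ were among those at 0 in every library.

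No replication or G1/S gene passed the test in either direction. In TYMP against NC cells, 0 of the 40 tested genes were called higher and 0 lower at an adjusted p under 0.05, beside 3.32% of all tested genes (2.09% higher and 1.23% lower). The smallest adjusted p in the set was 0.208. At an unadjusted p under 0.05, 2 genes were lower, UHRF1 and MCM10, beside 6.62% of all tested genes, and 0 were higher, beside 8.05% (14.7% in either direction). DESeq2 and limma-voom also called 0 of the 40 after adjustment, and each had 2 at an unadjusted p under 0.05.

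Within these libraries, the intervals of single genes were narrow. They cover the spread between these samples, which may be technical, and hold for 1 gene at a time. Leaving out NC replicate 1 moved a fitted log2 fold change of the set by 0.215, the largest shift from omitting a library. Fitted folds of TYMP over NC ran from 0.851 for CDC25A to 1.11 for POLE2, and all 40 of the 95% intervals lay within 1.5-fold in either direction. The lowest lower limit was a fold of 0.721 and the highest upper limit a fold of 1.38. The median half-width of the interval was 0.22 on the log2 scale in this set, against 0.30 over all tested genes. A p that misses the threshold does not show that the levels were the same. In RNA from whole cultures, fewer cells in S phase and less of these RNAs per cell cannot be told apart.

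Small shifts below NC were more frequent in the set than above it. The fitted log2 fold change was below 0 for 32 of the 40 genes (80%), beside 50.9% of all tested genes, and its median was -0.08 (a fold of 0.947) beside -0.01 over all tested genes. Both TYMP libraries were below both NC libraries for 13 of 40 genes (32.5%, beside 21.8% of all tested genes), and above both for 2 of 40, POLE2 and LIG1 (5%, beside 21.8%). In the remaining 25 genes the groups overlapped. The genes share libraries and scaling and many are transcribed together, so these counts are a description of the 4 libraries with no test. Counts of all set genes together came to 0.564% and 0.565% of each TYMP library, against 0.589% and 0.582% of each NC library, so the groups did not overlap in this sum. The summed FPKM of the keratinocyte markers above also did not overlap between groups. Of the 10 markers, 7 had both TYMP libraries above both NC libraries (beside 21.8% of all tested genes) and 3 overlapped (beside 56.4%). The share of mitochondrially encoded RNA did not overlap either, at 5.09% and 4.46% in TYMP libraries, against 4.25% and 4.24% in NC libraries. With mitochondrial genes left out, the median log2 fold change of the set was again -0.08, with 31 of the 40 genes below 0. No gene of the set moved by more than 0.0023. Leaving out these few genes changes the fit of the others little, so it is no check on that share. Neither the part of the keratinocyte markers in the shift of the set nor that of the mitochondrial share was tested.

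**Figure D1:**
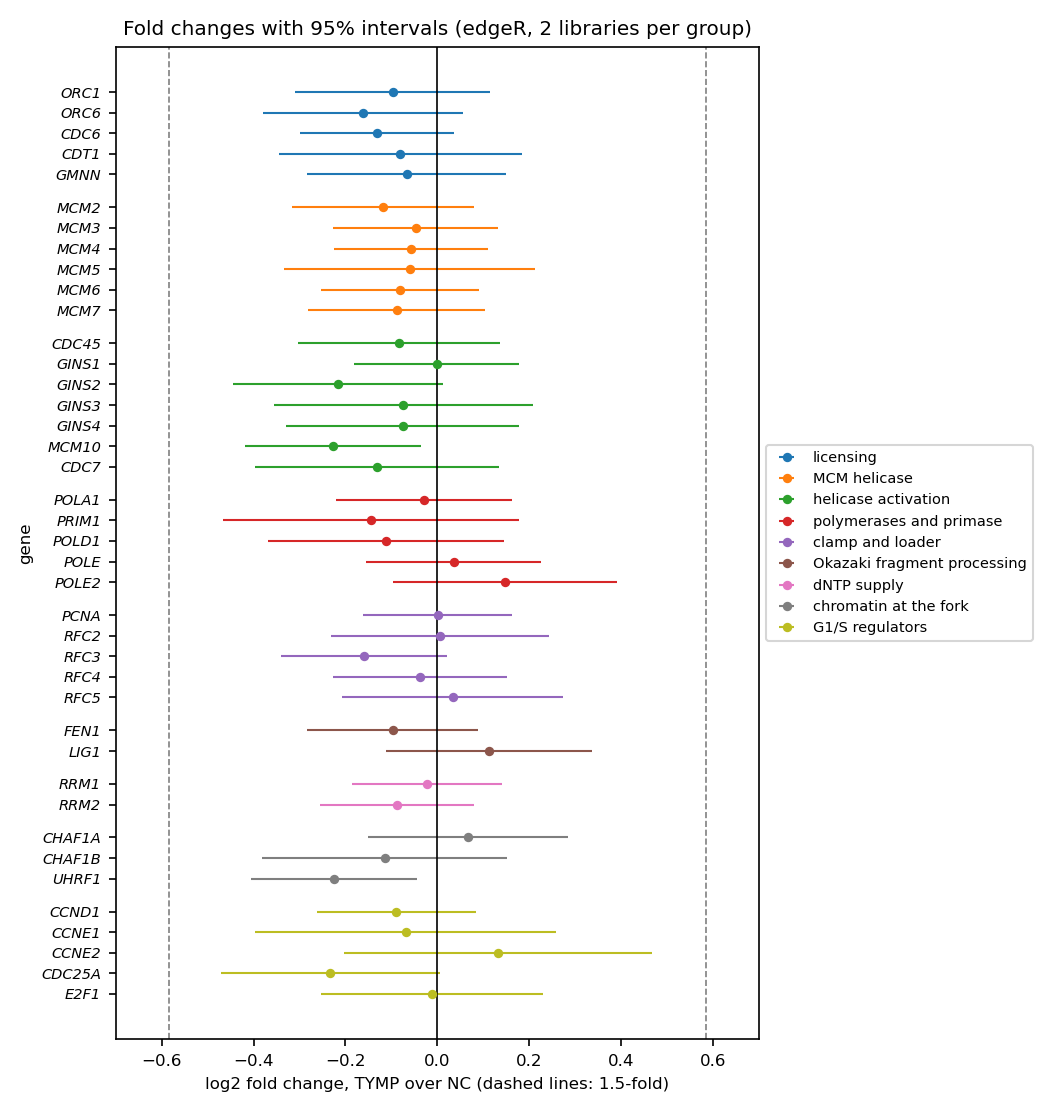
Fitted log2 fold change of TYMP over NC for the 40 tested genes, ordered by role, with bars for the 95% interval and dashed lines at 1.5-fold in either direction. All 40 intervals lie between the dashed lines, 32 of the 40 points lie below 0, and none passed an adjusted p of 0.05.

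The levels of the tested genes spanned 3.45 to 339 FPKM in TYMP cells and 3.11 to 334 FPKM in NC cells. Per length, PCNA, the sliding clamp, was the most abundant, at 339 ± 3.28 FPKM in TYMP cells and 334 ± 10.5 FPKM in NC cells (SD, n = 2 each). It was followed by CCND1, cyclin D1, at 133 FPKM in TYMP cells and 139.6 FPKM in NC cells, and RRM1 at 83.7 and 84.0 FPKM in the same order. At the low end stood CCNE2, the second cyclin E, at 3.45 ± 0.519 FPKM in TYMP cells and 3.11 ± 0.0691 FPKM in NC cells. E2F2, an activating E2F factor, was not detected above 1 read: it had 0 and 1 reads in the TYMP libraries and 0 and 0 in the NC libraries, under the limit of 3 counts that a count of 0 allows (0.176 to 0.185 CPM), and it was the gene left out of the test. Its relative E2F1 was read at 44.4 and 42.8 CPM in TYMP libraries, against 46.5 and 41.4 CPM in NC libraries.

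**Figure D2:**
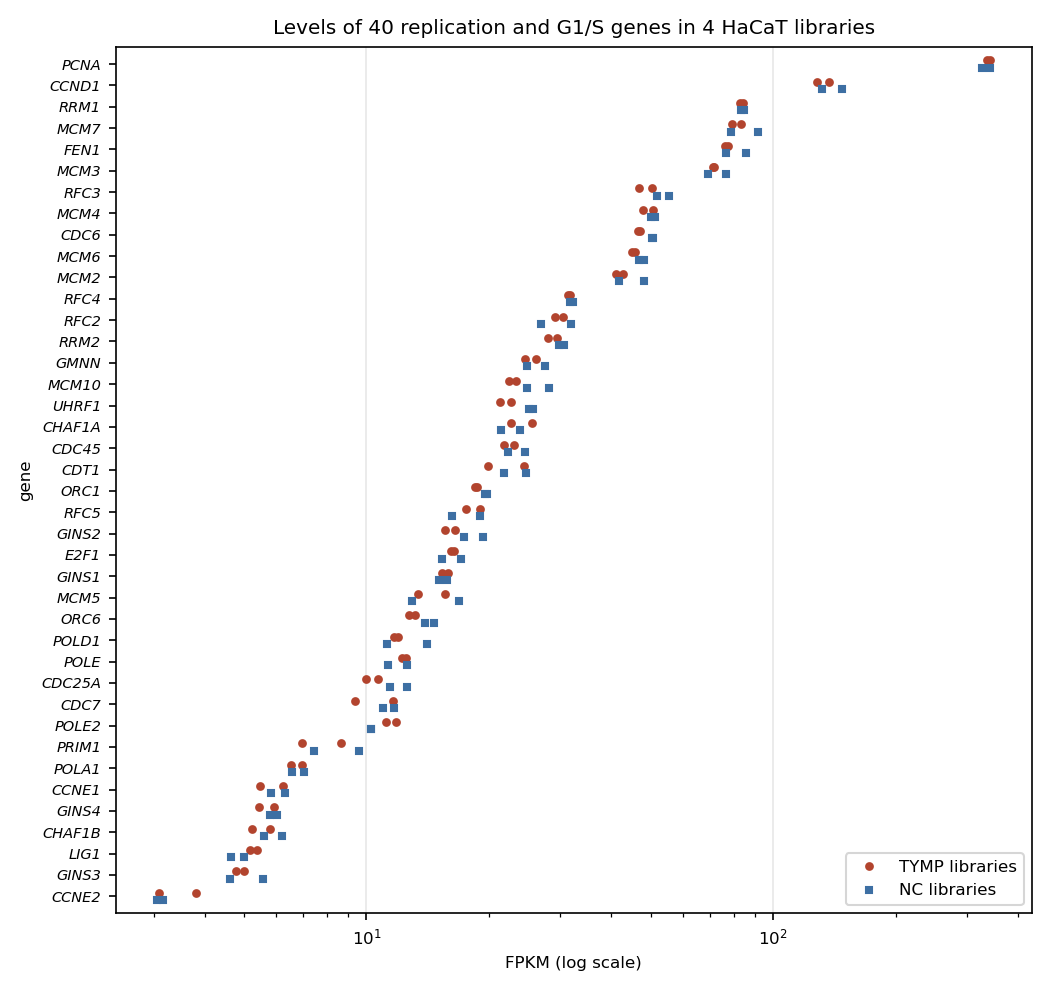
Level of each of the 40 tested genes in each library, in FPKM on a log axis, with TYMP and NC libraries in different colours. PCNA is highest at 339 FPKM in TYMP cells and 334 FPKM in NC cells, and the libraries of both groups lie close together for each gene. E2F2, which was not tested, is not drawn.

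The 5 origin licensing genes all had fitted values below 0, beside 80% of the set and 50.9% of all tested genes. Their median log2 fold change was -0.10, and none was called. CDC6, the ATPase that brings the helicase to origins, had 251.3 and 243 CPM in TYMP libraries, against 271 and 271 CPM in NC libraries. ORC6, a subunit of the origin recognition complex, had 57.0 and 54.1 CPM in TYMP libraries, against 63.9 and 60.4 CPM in NC libraries. ORC1, the subunit with the complex's regulated ATPase, had 58.2 and 57.6 CPM in TYMP libraries, against 62.7 and 61.2 CPM in NC libraries. In these 3 of the 5 genes both TYMP libraries were below both NC libraries, beside 32.5% of the set and 21.8% of all tested genes. Their intervals all contained no change. The fold was 0.913 (95% interval 0.813 to 1.03) for CDC6, 0.894 (0.768 to 1.04) for ORC6 and 0.935 (0.807 to 1.08) for ORC1. CDT1, the loading partner of CDC6, had 67.8 and 54.1 CPM in TYMP libraries, against 68.7 and 60.2 CPM in NC libraries. GMNN encodes geminin, the inhibitor that binds CDT1 to prevent a repeat of licensing, and it had 61.2 and 63.6 CPM in TYMP libraries, against 62.3 and 68.4 CPM in NC libraries. The groups overlapped for CDT1 and for GMNN, so the loader and its inhibitor showed no difference beyond the replicate spread.

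The 6 subunits of the MCM2-7 ring, which unwinds DNA at the fork, lay within a narrow span of folds although their levels differed. Fold of TYMP over NC was lowest for MCM2 at 0.921 (95% interval 0.803 to 1.06) and highest for MCM3 at 0.968 (0.855 to 1.10), with a median log2 fold change of -0.07. Per length, MCM7 was highest and MCM5 lowest, at 81.2 and 14.5 FPKM in TYMP cells. By CPM, which ignores length, MCM4 was highest at 484 in TYMP cells, above MCM7 at 401, so the order depends on the gene lengths used. The ring holds 1 copy of each protein, which RNA levels do not measure. MCM6 was the subunit whose groups did not overlap, with 190.4 and 184 CPM in TYMP libraries, against 195.8 and 200.05 CPM in NC libraries. MCM5 differed most between the NC libraries: it had 114 and 95.9 CPM in TYMP libraries, against 124 and 94.3 CPM in NC libraries. Both replicates numbered 1 were above both replicates numbered 2, and the distance within each group was larger than that between the groups. In MCM2, exons cover those of an antisense gene over 22.7% of their bases, but that neighbour had no more than 11 reads in any library.

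Genes that turn the loaded helicase into a working fork held MCM10, among the lowest folds of the set. MCM10 encodes a factor that activates the helicase at origins and lies on chromosome 10 (GRCh38, plus strand, 13161554 to 13211104). It had 1986 and 2131 reads in TYMP libraries, against 2304 and 2554 reads in NC libraries, which is 123 and 125.5 CPM against 137 and 154 CPM. Both TYMP libraries were below both NC libraries, and the NC libraries stood further apart than the TYMP libraries. Its fold was 0.854 (95% interval 0.748 to 0.975), with an unadjusted p of 0.0233 and an adjusted p of 0.231 in the edgeR quasi-likelihood test. GINS2, 1 of the 4 subunits of the GINS complex, had 50.4 and 52.2 CPM in TYMP libraries, against 63.0 and 56.3 CPM in NC libraries, a fold of 0.861 (0.735 to 1.01). The other GINS subunits were closer to equality: GINS1 was at a fold of 0.999, GINS3 at 0.950 and GINS4 at 0.949, each with overlapping groups. CDC45, the third part of the active helicase, had 69.1 and 63.9 CPM in TYMP libraries, against 74.1 and 66.7 CPM in NC libraries. CDC7, the kinase that triggers firing by phosphorylating MCM proteins, had 33.9 and 41.1 CPM in TYMP libraries, against 40.05 and 42.1 CPM in NC libraries. Groups overlapped for CDC45 and for CDC7.

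Among the polymerases the folds lay on both sides of 1. POLE2, the second subunit of polymerase epsilon, had the highest fold of the set, with 33.1 and 34.3 CPM in TYMP libraries, against 30.6 and 30.3 CPM in NC libraries. Its groups did not overlap, but the fold of 1.11 had a 95% interval of 0.935 to 1.31. POLE, the catalytic subunit of the same enzyme, which copies the leading strand, was at 1.03 (0.898 to 1.17), and POLD1, the catalytic subunit of polymerase delta on the lagging strand, at 0.925 (0.774 to 1.11). POLA1 and PRIM1 start each new strand as polymerase alpha and primase, and their folds were 0.980 and 0.905. POLD1 and PRIM1 differed between libraries of 1 group in opposite directions. POLD1 had 59.3 and 57.0 CPM in TYMP libraries, against 70.2 and 55.5 CPM in NC libraries. PRIM1 had 23.2 and 28.2 CPM in TYMP libraries, against 24.9 and 31.9 CPM in NC libraries. In NC cells, replicate 1 was thus above replicate 2 for POLD1 and below it for PRIM1.

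The clamp was the gene with a fitted fold closest to 1. PCNA, which tethers polymerases to DNA and is a common marker of proliferating cells, had 475 and 471 CPM in TYMP libraries, against 464 and 481 CPM in NC libraries. The TYMP libraries fell between the NC libraries, and the fold was 1.00 with a 95% interval of 0.894 to 1.12 (edgeR adjusted p = 0.997). Of the loader subunits that open the clamp, RFC2 was at 1.00, RFC4 at 0.974, RFC5 at 1.02 and RFC3 at 0.895 (0.790 to 1.02). RFC3 had 135 and 142 CPM in TYMP libraries, against 149.96 and 159 CPM in NC libraries, without overlap. RFC4 also did not overlap, with 95.5 and 92.4 CPM in TYMP libraries, against 96.1 and 96.8 CPM in NC libraries, while RFC2 and RFC5 did. Downstream of the clamp, FEN1, the nuclease that trims Okazaki fragments, had 169 and 168 CPM in TYMP libraries, against 191 and 169 CPM in NC libraries. LIG1, the ligase that then joins the fragments, had 61.6 and 57.8 CPM in TYMP libraries, against 57.5 and 52.9 CPM in NC libraries. These 2 successive enzymes lay on opposite sides of equality, at folds of 0.935 and 1.08, with neither called.

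Ribonucleotide reductase makes the deoxynucleotides for S phase, which places it next to the thymidine that TYMP consumes. Its large subunit gene RRM1 had 353 and 352 CPM in TYMP libraries, against 356 and 360.4 CPM in NC libraries. Its small, cell cycle regulated subunit gene RRM2 had 257 and 266 CPM in TYMP libraries, against 275 and 281 CPM in NC libraries. In both genes the TYMP libraries were below both NC libraries, beside 21.8% of all tested genes, but the distances were small. The folds were 0.984 (95% interval 0.879 to 1.10) for RRM1 and 0.941 (0.837 to 1.06) for RRM2, and neither was called. On the same strand, RRM2 shares 20.2% of its exon bases with AC007240.1, which has no row in the deposited table. Reads of the 2 genes in those bases cannot be told apart.

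UHRF1 had the smallest adjusted p of the set. It encodes the protein that recognises hemimethylated DNA behind the fork and recruits the maintenance methyltransferase, and it lies on chromosome 19 (GRCh38, plus strand, 4903080 to 4962154). It had 1776 and 1953 reads in TYMP libraries, against 2240 and 2152 reads in NC libraries, which is 110.2 and 115 CPM against 133 and 129.9 CPM. The gap between the groups was wider than the spread inside either. Its fold was 0.856 (95% interval 0.755 to 0.970), a difference of -14.4%, with an unadjusted p of 0.0190 and an adjusted p of 0.208 in the edgeR quasi-likelihood test. CHAF1A and CHAF1B encode the subunits of the CAF-1 chaperone, which deposits new histones on the daughter strands. CHAF1A was at a fold of 1.05 and CHAF1B at 0.924, and the groups overlapped for both.

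Of the 5 tested G1/S regulators, 4 had fitted values below 0, beside 80% of the set and 50.9% of all tested genes, and none was called. CDC25A, the phosphatase that activates the kinases of S phase entry, had 672 and 741 reads in TYMP libraries, against 888 and 786 reads in NC libraries, which is 41.7 and 43.6 CPM against 52.8 and 47.5 CPM. Its groups did not overlap, and its fold of 0.851 (95% interval 0.721 to 1.00) was the lowest of the set, with an adjusted p of 0.357 in the edgeR quasi-likelihood test. CCND1 had 614 and 644 CPM in TYMP libraries, against 635 and 705 CPM in NC libraries. CCNE1, the cyclin E that drives S phase entry with CDK2, had 15.5 and 13.3 CPM in TYMP libraries, against 14.5 and 15.6 CPM in NC libraries. CCNE2 had 13.7 and 16.6 CPM in TYMP libraries, against 13.6 and 13.9 CPM in NC libraries. All 3 cyclins overlapped between groups, with folds of 0.940 for CCND1, 0.953 for CCNE1 and 1.10 for CCNE2. E2F1, the activating factor above many of these genes, was at a fold of 0.992 (0.839 to 1.17). CCNE2 shares 37.0% of its exon bases with INTS8 on the opposite strand, which had 1296 and 1475 reads in TYMP libraries, against 1412 and 1368 reads in NC libraries, so its own counts are uncertain.

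Promoters were read for 36 of the 41 genes from RefSeq and searched for E2F letters. In the 250 bases before each annotated start, the E2F letters TTTCCCGC, TTTGGCGC, TTTCGCGC or TTTGCCGC were present on either strand in 17 of 47 windows of the set (36.2%), against 966 of 34788 distinct windows of all genes (2.78%). The letters CCAAT were present in 28 of the 47 (59.6%), against 32.0% of all windows, and no window of the set had the 2 motifs sharing a base. A match is a description of the letters and not a binding site. Below are 100 bases of the genes with E2F letters that had the lowest and the highest folds, from RefSeq on GRCh38.p14, each 5′ to 3′ on the strand of its gene, with the E2F letters or their complement in capitals. Of the genes with E2F letters, the first 3 lines are the lowest in TYMP over NC, and the last 3 are the highest.
CDC25A: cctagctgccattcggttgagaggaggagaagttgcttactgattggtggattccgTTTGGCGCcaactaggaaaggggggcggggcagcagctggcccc
UHRF1: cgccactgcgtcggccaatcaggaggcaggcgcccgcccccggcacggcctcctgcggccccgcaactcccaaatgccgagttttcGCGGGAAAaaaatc
GINS2: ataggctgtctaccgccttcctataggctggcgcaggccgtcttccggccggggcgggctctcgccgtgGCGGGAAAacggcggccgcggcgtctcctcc
PCNA: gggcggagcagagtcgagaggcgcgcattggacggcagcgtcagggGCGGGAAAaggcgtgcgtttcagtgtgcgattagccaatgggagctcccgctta
POLE: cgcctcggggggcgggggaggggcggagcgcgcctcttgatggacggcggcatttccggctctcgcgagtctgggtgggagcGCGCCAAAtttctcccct
LIG1: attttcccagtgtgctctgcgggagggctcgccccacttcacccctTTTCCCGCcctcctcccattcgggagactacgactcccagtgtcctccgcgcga
These windows are chr3:48188418-48188517 on the minus strand for CDC25A, chr19:4909401-4909500 on the plus strand for UHRF1, chr16:85688955-85689054 on the minus strand for GINS2, chr20:5126628-5126727 on the minus strand for PCNA, chr12:132687343-132687442 on the minus strand for POLE and chr19:48170405-48170504 on the minus strand for LIG1. The genes shown were picked from those with E2F letters, so their sharing these letters is no result. MCM10, among the lowest folds of the set, and POLE2, the highest, had no E2F letters in their windows. Over the set, the 15 tested genes with E2F letters had a median log2 fold change of -0.08 (12 below 0), against -0.09 for the 20 tested genes without them (16 below 0). MCM4, MCM5, GINS4, CCND1 and CCNE2 had no entry.

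**Figure D3:**
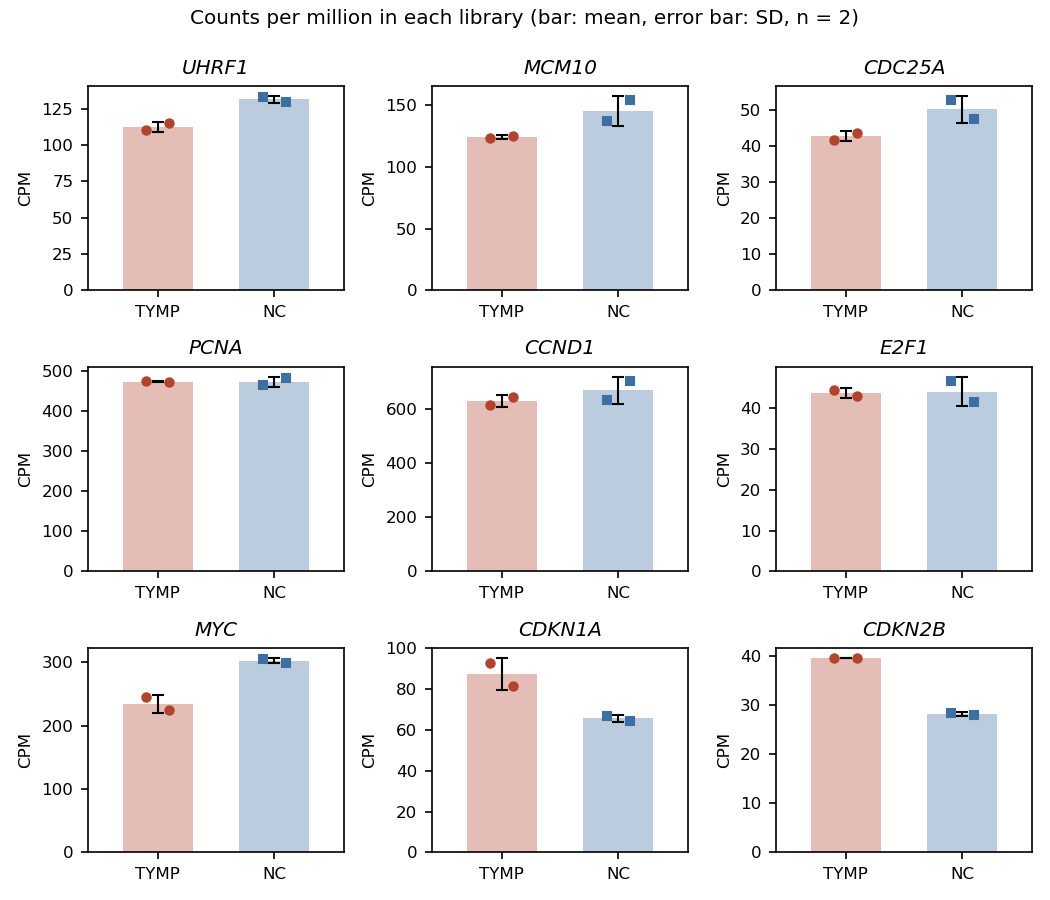
Scaled CPM in each library (points) with the mean and SD over 2 libraries (bars and error bars) for UHRF1, MCM10, CDC25A, PCNA, CCND1 and E2F1 and for MYC, CDKN1A and CDKN2B, TYMP at the left of each panel and NC at the right. UHRF1 averages 113 CPM in TYMP cells and 132 CPM in NC cells without overlap, PCNA averages 473 CPM in both, and CDKN2B averages 39.6 CPM in TYMP cells and 28.2 CPM in NC cells.

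Libraries of the same group differed from each other along the genes' base composition. GC content of the longest transcript ran from 36.9% for CCNE2 to 65.0% for POLD1. Over the 40 genes, GC content correlated with the log2 ratio of TYMP replicate 1 to replicate 2 at r = 0.64 (rho = 0.61) and with that of NC replicate 1 to replicate 2 at r = 0.73 (rho = 0.76). With the TYMP over NC fold it correlated at r = -0.02 (rho = 0.01). Over 13938 tested genes with a GC value, the same correlations were r = 0.23, 0.26 and 0.06 (rho = 0.41, 0.46 and 0.06). Genes are not independent replicates and all points come from the same 4 libraries, so these are descriptions with no p. GC-rich genes were thus relatively high in both replicates numbered 1. Within NC, replicate 1 exceeded replicate 2 by 0.40 on the log2 scale for MCM5 and by 0.34 for POLD1, and PRIM1 differed by -0.35. For 23 of the 40 genes the fitted difference between groups was smaller than the difference between the NC libraries, beside 7915 of the 14380 tested genes.

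**Figure D4:**
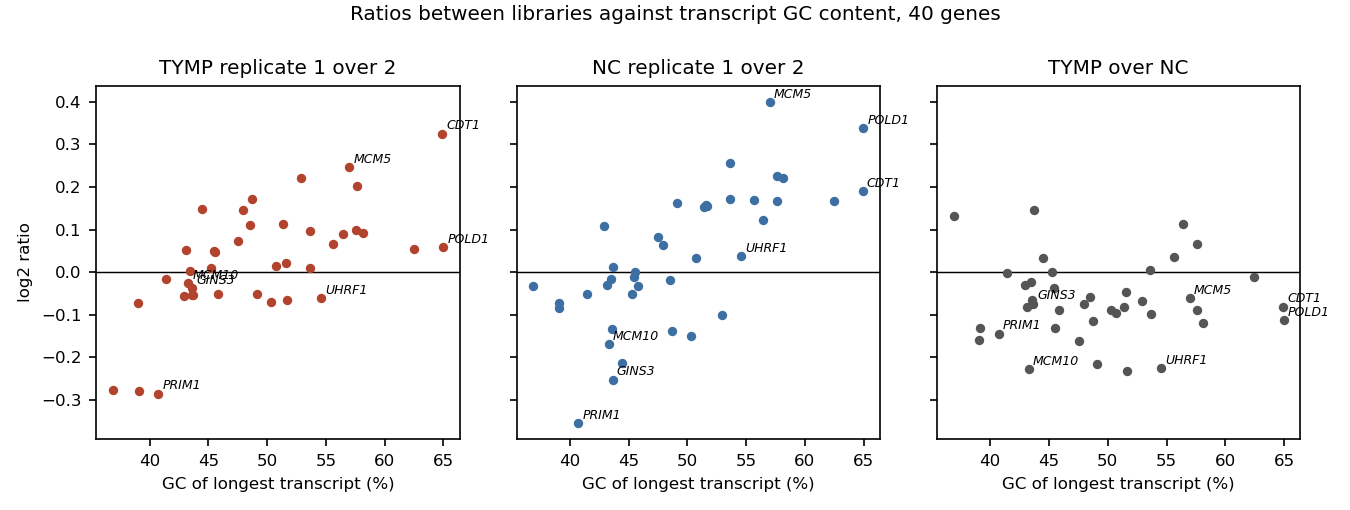
Log2 ratios of TYMP replicate 1 to 2, NC replicate 1 to 2 and TYMP to NC against GC content of the longest transcript in percent, 1 point for each of the 40 tested genes. The replicate ratios climb with GC content (r = 0.64 in TYMP and r = 0.73 in NC), while the ratio between groups does not (r = -0.02).

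A smooth term for GC content in each library was therefore tried, an alternative chosen after the data were seen. It lowered the biological coefficient of variation over all genes to 6.32%, against 9.26% without it. In that fit UHRF1 and MCM10 were called lower in TYMP cells, which is 2 of the 40 genes, beside 5.81% of all genes in the fit called lower and 11.9% called in either direction, and 0 were called higher. UHRF1 differed by -14.8% (log2 fold change -0.23, standard error 0.060, edgeR adjusted p = 0.0117) and MCM10 by -13.6% (log2 fold change -0.21, standard error 0.0565, edgeR adjusted p = 0.0139). The sizes moved little from the fit without the term. The share called lower in the set was near that of all genes, while the 0 called higher stood beside 854 of 13954. By replicate number, the median log2 ratio of TYMP to NC in the set was -0.07 for replicates 1 and -0.07 for replicates 2, with 29 of 40 genes below 0 in each, beside 50.2% and 51.5% of all tested genes, and 22 of 40 below 0 in both, beside 4884 of 14380.

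Around this set, 3 upstream regulators of G1 passed the test. In a list of 20 other G1 cyclins, kinases and inhibitors, 19 were tested and 2 rose and 1 fell in TYMP cells, beside 2.09% and 1.23% of all tested genes. CDKN2B encodes p15, an inhibitor of the cyclin D kinases, and it had 39.5 and 39.6 CPM in TYMP libraries, against 28.4 and 27.9 CPM in NC libraries. It rose 1.40-fold (edgeR adjusted p = 0.0295). CDKN1A encodes p21, which inhibits CDK2 and binds PCNA, and it had 93.1 and 81.8 CPM in TYMP libraries, against 67.1 and 64.5 CPM in NC libraries. It rose 1.33-fold (edgeR adjusted p = 0.0423). MYC, a transcription factor that promotes growth and G1 progression, fell to 244 and 224 CPM in TYMP libraries, against 306 and 299 CPM in NC libraries, a fold of 0.774 (edgeR adjusted p = 0.0239). All 3 had groups that did not overlap, which adds nothing to the calls, since both come from the same counts. Groups overlapped for 7 of the 19 tested genes of the list (36.8%), beside 56.4% of all tested genes. CDKN1C, a further inhibitor, had 0 reads in every library. Each call was lost when a single TYMP library was left out. CDKN2B was at an adjusted p of 0.131 without TYMP replicate 1 and 0.145 without TYMP replicate 2, CDKN1A at 0.410 without TYMP replicate 1, and MYC at 0.270 without TYMP replicate 2 in the edgeR test. CDKN1A was also not called by limma-voom (adjusted p = 0.05618) or by edgeR without the robust option (adjusted p = 0.0529). On log2 FPKM, limma called neither CDKN1A (adjusted p = 0.0757 with a pseudocount of 1 and 0.0762 with 0.1) nor MYC (adjusted p = 0.08519 and 0.0850).

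In the lists that border on replication no gene was called, beside 3.32% of all tested genes. Among 36 other origin and fork genes the median log2 fold change was -0.01. The smallest p in that list belonged to POLE4, a small subunit of polymerase epsilon, at a fold of 0.796 (edgeR adjusted p = 0.359), and then to TICRR, a factor for helicase activation, at 1.13 (edgeR adjusted p = 0.373). The E2F and retinoblastoma family had a median of -0.02 over 15 tested genes, with the repressors E2F7 at a fold of 0.879 and E2F8 at 1.13, on opposite sides of equality. Among 12 further genes of nucleotide supply the median was -0.11. CTPS1, which makes CTP, had 103 and 104.8 CPM in TYMP libraries, against 131 and 119 CPM in NC libraries, a fold of 0.831 (edgeR adjusted p = 0.1495), and DCTD, which deaminates dCMP on the way to thymidylate, was at 0.870 (edgeR adjusted p = 0.397).

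Genes of chromatin supply and of mitosis lay near the replication set. Over 10 tested genes of S phase chromatin and histone supply the median log2 fold change was -0.08, with CENPU, a centromere protein, at a fold of 0.869 and CDCA7, a chromatin-bound MYC and E2F target, at 0.897. Over 30 genes of mitosis and G2/M the median was -0.07, beside -0.08 for the replication set and -0.01 over all tested genes. KIF23, a kinesin of cytokinesis, was at a fold of 0.870 and CENPE, a kinesin of chromosome alignment, at 1.21. Of the mitosis genes 23 of 30 had a fitted value below 0 (76.7%), beside 80% of the replication set and 50.9% of all tested genes.

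**Figure D5:**
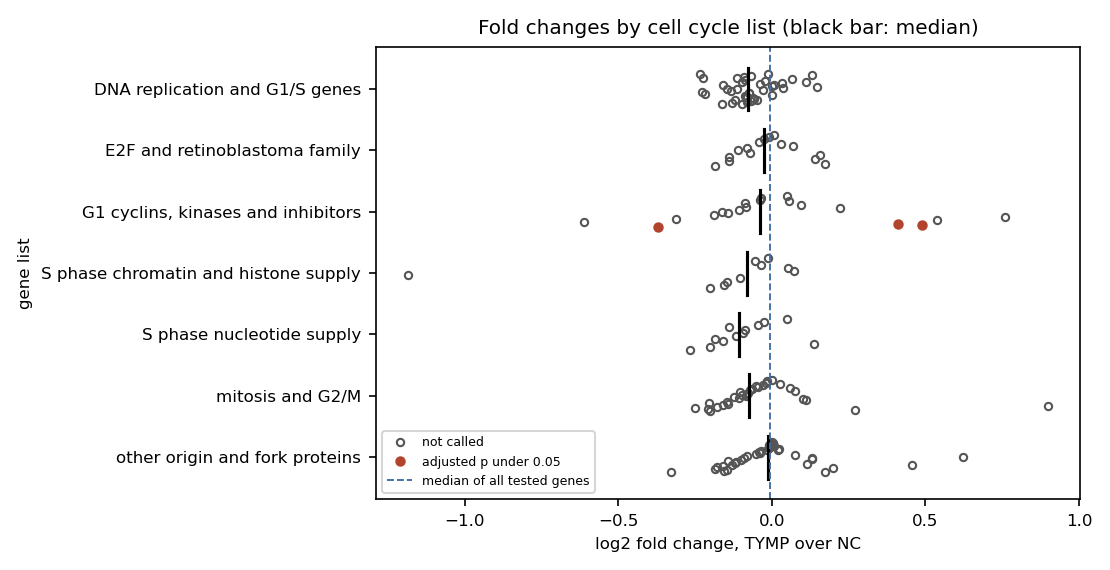
Fitted log2 fold change of TYMP over NC for each tested gene of the replication set and of 6 neighbouring lists, with genes past an adjusted p of 0.05 in red. The 3 red points, CDKN2B and CDKN1A above 0 and MYC below 0, all belong to the list of G1 cyclins, kinases and inhibitors, and the replication set has a median of -0.08.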

How the data were processed

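The deposited table gave, for 4 libraries, raw read counts and FPKM per gene. Per the labels' protocols, the libraries were made from 1.5 µg of RNA with a NEBNext Ultra kit for a NovaSeq instrument. HISAT2, HTSeq 0.13.5 and GRCh38 are named in the submitters' processing notes without their roles. The annotation release, the strand setting and how multimapping reads were treated are likewise not stated there. In the authors' FPKM, all 87668 values above 0 equalled a count divided by the column total and a whole gene length, within 0.001 bases, so FPKM was used for levels between genes and in alternatives.

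Counts were tested with edgeR 4.0.16 under R 4.3.3, by its quasi-likelihood F test (filterByExpr, TMM, robust, group as the only term), with Benjamini-Hochberg adjustment over 14380 genes and a threshold of 0.05. Each standard error was the absolute log2 fold change divided by the square root of F, and intervals used a t quantile. Intervals cover the spread of the model at 95%. The limit for a count of 0 is 3 counts and covers counting error only. An exact permutation of 2 against 2 cannot go below p = 0.333. Replicates were no duplicates: chi-square per degree of freedom was 6.33 within TYMP and 7.94 within NC. The members, gene lists and tests were chosen with earlier results of these data known. Named outside the set were TYMP, and for each further list up to 4 called genes by smallest p, or up to 2 where none was called. GC content, coordinates and exon overlaps came from GENCODE 29 on GRCh38. The GC term was a lowess curve (span 0.3) per library of the deviation in log CPM (prior count 2), used as an offset. The procedure was tested on simulated data. Alternatives were DESeq2 1.42.0, limma 3.58.1 (voom, and log2 FPKM with pseudocounts of 1 and 0.1 for genes with a mean of at least 1 FPKM), other scalings and filters, no robust option, mitochondrial genes left out, omission of each library, a block for the replicate number, and the GC term with and without the block. The value of 1 marker gene is not reported here.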

Additional observations from a re-analysis of the deposited data

How the results depend on the processing

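No replication or G1/S gene was called under any alternative without the replicate block or the GC term. The median log2 fold change of the set stayed below 0, at -0.054 with upper quartile scaling and between -0.092 and -0.041 with single libraries left out, and 27 to 33 genes were below 0. Over all genes, 478 calls (301 higher, 177 lower) became 732 (288 lower) without a filter, 215 (152 higher, 63 lower) on log2(FPKM + 1) and 210 (146, 64) on log2(FPKM + 0.1). Leaving out single libraries gave 393 to 716 calls, 262 to 451 higher and 119 to 295 lower. Those fits take the spread of the remaining pair for the single library as well. The GC term gave 1665 calls (854 higher, 811 lower), 2 of them in the set and both lower.

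The replicate numbers could not be taken to pair the libraries, since the labels give no shared batch and there are 2 pairs. Across all genes the differences between replicates 1 and 2 correlated at 0.10 between groups (0.45 in the set). Those differences rose with GC content in both groups (rho = 0.41 in TYMP and 0.46 in NC over 13938 genes). Whether the replicate numbers mark a shared batch was not tested. With the replicate block, 2024 genes were called (980 higher, 1044 lower), and in the set 4 were lower: UHRF1, MCM10, RFC3 and CDC6. That is 4 of 40 beside 7.26% of all genes. With the block and the GC term, 2131 were called (1046, 1085), and again 4 in the set, MCM2, MCM10, RFC3 and UHRF1, beside 7.78%. These alternatives with a GC term were chosen after seeing the data.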
